A study of Mus musculus with 60 samples.

Results

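The nuclear genes of oxidative phosphorylation were followed through 2i conversion in 4 lines of mouse embryonic stem cells. The genes were chosen by symbol: those that begin with Nduf, Uqcr or Atp5, those that begin with Cox4, Cox5, Cox6, Cox7 or Cox8, and the 4 genes Sdha, Sdhb, Sdhc and Sdhd. Leaving out 16 symbols with the pseudogene suffix -ps, this gave 99 of the 50559 genes in the count table, called members here, and 90 of them were among the 15083 genes with enough counts to be tested. RNA-seq of polyA RNA gave 60 libraries in 20 groups of 3, labelled as biological replicates. The groups were the Eed knockout of line 1A, the Ezh2 knockout of line 1A, wild type V19 and wild type 1A, each at 0, 12, 24, 48 and 96 h of 2i. V19 and 1A were derived independently, and both knockouts are Cas9-edited lines isogenic with 1A that carry loss-of-function mutations in a core subunit of Polycomb repressive complex 2, the enzyme complex that methylates lysine 27 of histone H3. Each knockout is 1 line, so effects of the lost gene and of anything else particular to that line cannot be told apart. 2i is the pair of inhibitors CHIR99021 at 3 µM, which blocks GSK3, and PD0325901 at 1 µM, which blocks MEK, exchanged daily. All 20 groups, the untreated 0 h groups included, were grown under a protocol with 15% serum and LIF on gelatin. The labels do not say whether serum was kept during 2i.

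Oxidative phosphorylation is carried out by 5 protein complexes of the inner mitochondrial membrane. Complex I (NADH dehydrogenase, Nduf genes) and complex II (succinate dehydrogenase, Sdh genes) pass electrons to ubiquinone, complex III (Uqcr genes) passes them to cytochrome c, and complex IV (cytochrome c oxidase, Cox genes) passes them to oxygen. Complexes I, III and IV pump protons, and complex V (ATP synthase, Atp5 genes) uses the returning protons to make ATP. Complex II is wholly nuclear-encoded, while the other 4 also hold subunits encoded in mitochondrial DNA. Pluripotent cells in the naive state are known for using both glycolysis and respiration, and primed cells for relying more on glycolysis. The count table uses older symbols for complex V: Atp5a1 and Atp5b are the alpha and beta subunits of the F1 head, and Atp5g1, Atp5g2 and Atp5g3 all encode subunit c of the rotor ring.

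The libraries held 2561169 to 11065948 reads assigned to genes (median 6055990). The members took between 1.24% and 2.58% of a library's counts. Eed stood at 15.3 to 28.2 CPM, its count scaled to library size, in its knockout, against 246 to 393 CPM in 1A wild type, and Ezh2 stood at 14.5 to 19.9 CPM in its knockout, against 194 to 278 CPM in 1A wild type. The 10 pluripotency markers summed to 3687 to 5845 CPM in the Eed knockout and to 5687 to 9989 CPM in 1A wild type. In the Eed knockout all 10 primitive endoderm and all 10 trophoblast markers were called higher than in 1A wild type at 0 and at 96 h. Libraries also differed in how the level of a gene went with its exon length. The slope of log2 level on log2 exon length over the non-member genes, set against 1A wild type at 0 h, ran from -0.30 in V19 at 48 h, replicate 2, to 0.068 in the Eed knockout at 48 h, replicate 1. A negative slope means that short transcripts take a larger share, and the members are short, with a median exon length of 922 nt against 3642 nt for the other genes tested. For this reason most counts of calls, and the values of some genes, are given a second time. In these the length trend of the non-member genes was removed from every library, a correction added after the data had been seen. Values given only once are as measured and may hold a part due to length. The part of the length trend in the results beyond that was not tested.

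RefSeq promoter entries on build GRCm38.p6 were found for 78 of the 99 members. The 250 bases before the transcript start are shown for 6 genes on which the results below turn: Cox5a, the member with the largest change at 48 h in 1A wild type, Ndufaf5, the member with the largest difference between the Eed knockout and 1A wild type at 96 h, Cox6b2, the member with the largest change at 96 h, Atp5g2, the member that fell at 96 h, and Sdha and Sdhd, which share a complex but not a time course. Capitals mark matches to the binding motif of NRF1, a transcription factor known for many genes of respiration, searched as GCGCNTGCG on both strands.
Cox5a, chr9:57520982-57521231, plus strand: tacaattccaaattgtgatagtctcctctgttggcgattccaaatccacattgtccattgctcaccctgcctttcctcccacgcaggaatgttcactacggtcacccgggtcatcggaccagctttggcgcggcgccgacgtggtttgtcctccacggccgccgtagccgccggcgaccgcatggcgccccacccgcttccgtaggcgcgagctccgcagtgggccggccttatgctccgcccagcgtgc
Ndufaf5, chr2:140170396-140170645, plus strand: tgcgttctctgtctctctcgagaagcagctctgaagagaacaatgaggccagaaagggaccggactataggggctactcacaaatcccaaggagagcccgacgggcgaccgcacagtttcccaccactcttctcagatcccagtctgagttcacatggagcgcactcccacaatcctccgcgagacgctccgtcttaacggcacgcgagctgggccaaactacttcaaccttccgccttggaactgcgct
Cox6b2, chr7:4753095-4753344, minus strand: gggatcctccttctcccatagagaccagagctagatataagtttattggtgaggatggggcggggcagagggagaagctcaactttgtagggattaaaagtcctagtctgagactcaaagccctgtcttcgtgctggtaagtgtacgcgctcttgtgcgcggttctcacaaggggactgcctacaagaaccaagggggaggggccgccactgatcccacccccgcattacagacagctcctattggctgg
Sdha, chr13:74350241-74350490, minus strand: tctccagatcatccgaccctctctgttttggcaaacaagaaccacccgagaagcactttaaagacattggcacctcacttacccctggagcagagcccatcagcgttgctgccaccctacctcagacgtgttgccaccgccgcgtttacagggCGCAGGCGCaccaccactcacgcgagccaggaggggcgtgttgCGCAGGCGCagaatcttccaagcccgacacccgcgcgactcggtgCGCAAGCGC
Sdhd, chr9:50603850-50604099, minus strand: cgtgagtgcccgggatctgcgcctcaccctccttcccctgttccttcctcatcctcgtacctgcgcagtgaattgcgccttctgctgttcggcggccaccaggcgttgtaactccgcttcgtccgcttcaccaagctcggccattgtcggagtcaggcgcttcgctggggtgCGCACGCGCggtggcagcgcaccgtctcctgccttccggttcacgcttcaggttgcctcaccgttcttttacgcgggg
Atp5g2, chr15:102671048-102671297, minus strand: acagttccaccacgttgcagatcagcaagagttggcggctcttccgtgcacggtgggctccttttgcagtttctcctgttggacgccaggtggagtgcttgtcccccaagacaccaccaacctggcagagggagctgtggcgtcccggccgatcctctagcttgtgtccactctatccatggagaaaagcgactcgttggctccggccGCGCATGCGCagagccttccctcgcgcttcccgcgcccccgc
Sdha holds 3 such stretches, Sdhd and Atp5g2 hold 1 each, with that of Atp5g2 matched on both strands, and these letters are not in the stretches of Cox5a, Ndufaf5 and Cox6b2. Over the whole 300-base window of the table, which runs from 250 bases before the start to 50 after it, 26 of the 78 members matched, Ndufaf5 among them. That was 33.3%, against 7.12% of all 27025 genes in the table. Among tested genes it was 26 of 75 members, or 34.7%, against 14.4% of the 11427 tested genes in the table. The other motifs searched on both strands were GABP (CCGGAAGT), YY1 (AAGATGGCG), ERR (TCAAGGTCA) and the E-box (CACGTG), and no motif contains another. GABP was found in 5 of the 75 tested members (6.67%, against 8.44% of the tested genes) and YY1 in 8 (10.7%, against 3.27%). ERR was found in 2 (2.67%, against 0.333%) and the E-box in 6 (8.0%, against 11.7%). These are matches of letters, with no binding measured.

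Per kilobase of exon, the 90 tested members had a median mean level of 123 CPM per kb over the 60 libraries, from 0.903 for Ndufa4l2 to 1478 for Atp5b, the catalytic beta subunit of ATP synthase. Next in order of CPM per kb came Cox4i1 at 984, a regulatory subunit of complex IV, Atp5a1 at 745, and Cox6a1 at 619.7. By median CPM per kb, the F1 head of complex V (390.0 over 5 genes) and the 11 ubiquitous subunits of complex IV (352) stood above complex III (218 over 8 genes), complex II (129 over 4 genes), and the core (105 over 7 genes) and accessory (97.6 over 30 genes) subunits of complex I. The 8 Nduf assembly factors of complex I, which help build it but do not stay in it, were lowest among the widely used classes at a median of 15.5 CPM per kb. Within complex II the 4 levels lay close together, from 121 to 158 CPM per kb.

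Most isoforms known from particular tissues were near the floor. The 9 members not tested were Cox6a2 (0 to 8 counts per library), Cox7b2 (0 to 11), Cox8b (0 to 1), Cox8c (0 to 5), Cox6c2 (0 to 5) and the further-copy symbols Ndufa11b (0 to 2), Ndufb4b (0 to 1), Ndufb4c (0 to 1) and Ndufs6b (0 to 4). Among the tested isoforms, Ndufa4l2, known as a hypoxia-induced relative of Ndufa4, and Cox4i2, the lung and hypoxia isoform of Cox4, stayed far below their partners. Cox6b2, the testis isoform of Cox6b, was the exception and is described with complex IV below.

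In 1A wild type the nuclear genes of oxidative phosphorylation rose over the first 48 h of 2i, and fewer of them were above their 0 h level at 96 h. A member was called where edgeR's quasi-likelihood test, fitted over all 60 libraries, gave an adjusted p under 0.05 after Benjamini-Hochberg adjustment over the 15083 genes. At 12 h, 50 of 90 members were called higher than at 0 h, where 20% of all genes tested were, with a median log2 fold change over the members of 0.47. At 24 h 71 members were called higher (all genes, 24.0%; member median 0.67), and at 48 h 75 were (all genes, 26.8%; member median 0.77). No member was called lower at these 3 times. At 96 h 25 were called higher (all genes, 25.1%; member median 0.21), and 1, Atp5g2, was called lower (all genes, 23.5%), so that the share of higher calls was then near that of all genes in this fit. The median over all genes tested lay between -0.02 and 0.06 in these comparisons. The members' share of all counts was 1.32 ± 0.0569% at 0 h, 1.78 ± 0.0375% at 12 h, 1.88 ± 0.284% at 24 h, 2.01 ± 0.0788% at 48 h and 1.66 ± 0.0433% at 96 h (SD, n = 3 libraries each). At 24 h replicate 1 stood apart: its median over the members was 0.20 above the 0 h mean on the log2 scale, while replicates 2 and 3 stood at 0.85 and 0.87. The length slope of replicate 1 was 0.019, against -0.14 and -0.15 in the other replicates. The 12 h count was 29 without replicate 3 of 1A wild type at 0 h, and fitting only the groups compared gave 78 calls at 12 h and 49 at 96 h, where 46 were called without the 7 libraries that depart from their groups in length slope. Here and below, shares of all genes are given only for the main fit and the length-corrected one. Counts from other fits cannot be set against them.

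**Figure D1:**
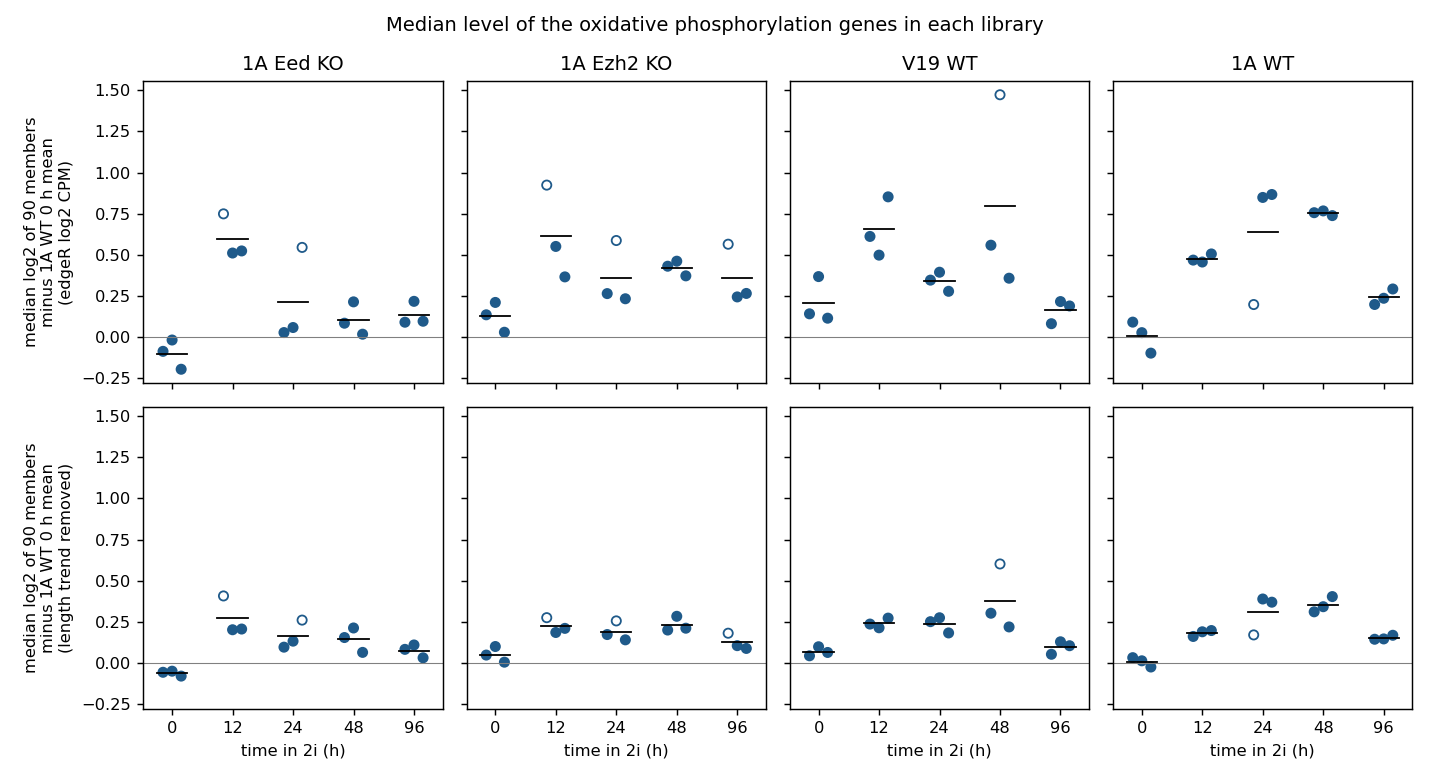
Each point is 1 library: the median over 90 members of its log2 CPM minus the mean of 1A wild type at 0 h (vertical axis, log2), by hours in 2i (horizontal axis), with 1 column of panels per line, the values as measured in the upper panels and with the length trend removed in the lower ones. Open points are the 7 libraries whose length slope departs from the other replicates of their group; V19 at 48 h, replicate 2, stands highest at 1.47, and the 3 libraries of 1A wild type at 48 h lie between 0.74 and 0.77.

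With the length trend removed, higher calls numbered 35 at 12 h (all genes, 19.8%), 55 at 24 h (23.5%), 58 at 48 h (25.5%) and 34 at 96 h (25%), where 7 members were called lower (27.6%). The share of higher calls in this second fit was above that of all genes at all 4 times, 96 h included. The member medians were 0.17, 0.31, 0.37 and 0.11 at the 4 times in turn. All 58 members called higher at 48 h after the correction were also called before it, as were all 35 at 12 h and 54 of the 55 at 24 h. Genes of like length were set beside the members at 48 h as a description. Members with up to 600 nt of exon had a median log2 fold change of 0.94 (25 genes), against 0.60 for the 338 other genes of that length. In the bin from 1001 to 1500 nt the medians were 0.75 for members and 0.32 for other genes, and from 2501 to 4000 nt they were 0.42 and 0.03. The members lay above other genes in all 6 length bins, and both fell with length up to 4000 nt.

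**Figure D2:**
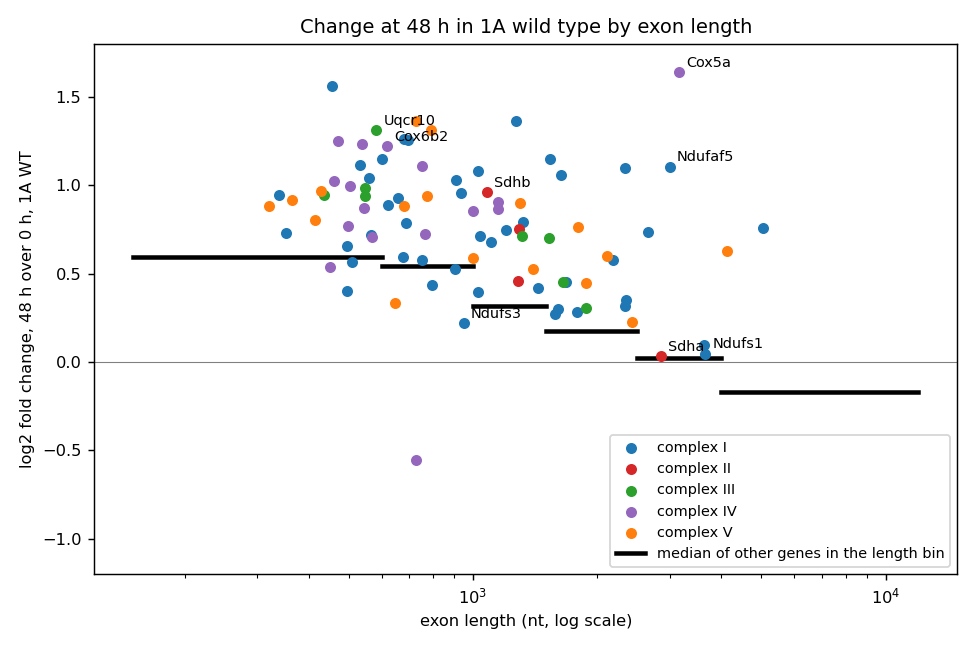
Each coloured point is a member, placed by exon length (horizontal axis, nt, log scale) and by log2 fold change at 48 h over 0 h in 1A wild type (vertical axis), coloured by complex, and each black bar is the median of the other tested genes in a length bin. Most members lie above the bar of their bin, and Cox5a, at a log2 fold change of 1.64, is both long and the highest of all.

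Complex I, the largest complex, has core subunits that carry the electrons and accessory subunits around them that stabilise the enzyme. At 48 h in 1A wild type 27 of 30 accessory subunits rose with a median log2 fold change of 0.84, 5 of 7 core subunits rose with a median of 0.35, and 3 of 8 assembly factors rose with a median of 0.44. After removal of the length trend these counts were 19, 3 and 2. No test of the difference between classes was run. Among accessory subunits, Ndufa13, also known as GRIM-19, had 192, 196 and 229.6 CPM at 48 h, against 81.1, 87.4 and 68.7 CPM at 0 h. Its log2 fold change was 1.37 ± 0.21 (SE; edgeR adjusted p = 2.23e-07), or 1.05 ± 0.13 with the length trend removed. 29.6% of its exon bases are shared with Tssk6, so part of its reads could belong there. The groups did not overlap.

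The core subunits of complex I, which hold the flavin and the iron-sulphur clusters, split. Ndufv2, an iron-sulphur subunit of the NADH-binding module, had 275, 295 and 238 CPM at 48 h, against 137, 124 and 127 CPM at 0 h (log2 fold change 1.06 ± 0.19, edgeR adjusted p = 5.74e-06). It shares 27.7% of its exon bases with Ankrd12 on the same strand, so part of its reads could belong there. Ndufs7 rose by 0.68 ± 0.17 on the log2 scale. Ndufs1, which carries the most iron-sulphur clusters of any subunit, had 172, 179 and 169.7 CPM at 48 h, against 167, 181 and 154 CPM at 0 h, groups that overlapped (log2 fold change 0.048 ± 0.065, edgeR adjusted p = 0.555). Ndufs3 gave 0.22 ± 0.14 (edgeR adjusted p = 0.198) and did not pass. Ndufv1, the flavin-bearing subunit, and Ndufs8 passed at 0.30 ± 0.12 and 0.40 ± 0.16, and neither did after removal of the length trend, at 0.057 ± 0.086 and 0.0071 ± 0.083. The Ndufv1 call was also lost without replicate 1 or 3 of 1A wild type at 0 h or replicate 1 or 3 of 1A wild type at 48 h. The Ndufs8 call was lost without replicate 2 or 3 of 1A wild type at 0 h or replicate 1 or 2 of 1A wild type at 48 h.

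Of the complex I assembly factors, Ndufaf5, an enzyme known from human cells to hydroxylate Ndufs7 during assembly, rose early and stayed up. In 1A wild type it had 15.5, 13.9 and 16.8 CPM at 0 h, 35.8, 35.6 and 28.7 CPM at 12 h, 32.4, 33.2 and 33.3 CPM at 48 h and 29.0, 32.8 and 29.9 CPM at 96 h. Its log2 fold change was 1.13 ± 0.16 at 12 h and 1.00 ± 0.16 at 96 h (edgeR adjusted p = 5.59e-08 and 7.22e-07), and length correction left 1.10 ± 0.15 and 0.96 ± 0.16. Every 2i library of this line lay above every 0 h library at these times. Ndufaf4, Ndufaf3, Ndufaf2 and Ndufaf8 passed the test at none of the 4 times in this line, with log2 fold changes between -0.39 and 0.52.

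Complex II links the citric acid cycle to the chain, and its 4 subunits did not move together. Sdhb, the iron-sulphur subunit, had 218, 234 and 262 CPM at 48 h, against 124, 126 and 115 CPM at 0 h, and rose by 0.96 ± 0.16 (edgeR adjusted p = 1.14e-06). Sdhc and Sdhd, the membrane anchors, rose by 0.75 ± 0.15 and 0.46 ± 0.10. Sdha, the flavoprotein that oxidises succinate, had 368, 344 and 369 CPM at 48 h, against 350.4, 362 and 344 CPM at 0 h, and its log2 fold change of 0.032 ± 0.055 did not pass (edgeR adjusted p = 0.65). Sdha had risen by 0.19 ± 0.054 at 12 h (edgeR adjusted p = 0.00406) and stood at -0.11 ± 0.054 at 96 h (edgeR adjusted p = 0.105). Over the 5 times its group means in this line ran from 328 CPM at 96 h to 402 CPM at 12 h. The 12 h call was lost where genes with low counts were kept in the fit (edgeR adjusted p = 0.242). After length correction the 48 h values were 0.59 ± 0.090 for Sdhb and -0.024 ± 0.053 for Sdha.

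All 8 Uqcr genes of complex III rose at 48 h in 1A wild type, with a median log2 fold change of 0.83, and 7 of them did after length correction (median 0.38). Uqcr10, a small accessory subunit, had 214, 231 and 228 CPM at 48 h, against 97.5, 89.5 and 82.6 CPM at 0 h. The log2 fold change of 1.31 ± 0.20 was the largest in the complex (edgeR adjusted p = 3.53e-07), and it was still 0.90 ± 0.20 at 96 h. Uqcrfs1, the Rieske iron-sulphur protein that takes electrons from ubiquinol, rose by 0.71 ± 0.16. Uqcrc1 and Uqcrc2, the large core proteins, rose by 0.45 ± 0.087 and 0.30 ± 0.075. At 12 h Uqcrc1 gave -0.14 ± 0.087 (edgeR adjusted p = 0.187), and with the length trend removed it was called lower, at -0.29 ± 0.059 (edgeR adjusted p = 5.25e-05).

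Complex IV held the member with the largest rise. All 11 ubiquitous subunits rose at 48 h (median log2 fold change 0.87), and 9 did after length correction (median 0.41). Cox5a, a matrix-side subunit (chr9:57423012-57439710, GRCm39), had 234, 219.5 and 194 CPM at 0 h, 299, 322 and 339.9 CPM at 12 h, 399, 628 and 659.9 CPM at 24 h, 666, 696 and 661 CPM at 48 h and 392, 417 and 442 CPM at 96 h in 1A wild type. Each library at 12 h or later lay above each at 0 h, and at 24 h replicate 1 was well below the other two. The log2 fold change was 1.64 ± 0.16 at 48 h (edgeR adjusted p = 2.93e-12) and 0.95 ± 0.16 at 96 h, and length correction left 1.62 ± 0.16 and 0.91 ± 0.16. Its exons span 3153 nt, near the median of 3642 nt for the non-member genes. Cox5b, the zinc-binding subunit, rose by 0.71 ± 0.18 at 48 h and Cox4i1 by 0.73 ± 0.18, and with the length trend removed these were 0.14 ± 0.11 and 0.25 ± 0.090, where Cox4i1 passed (edgeR adjusted p = 0.0193) and Cox5b did not. Cox7a2l, which joins complexes III and IV into supercomplexes, rose by 0.86 ± 0.16.

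The testis isoform Cox6b2 (chr7:4754791-4756093, GRCm39) had 16.3, 17.8 and 9.92 CPM at 0 h, 29.2, 28.7 and 23.0 CPM at 12 h, 39.2, 33.0 and 32.4 CPM at 48 h and 43.3, 37.8 and 40.2 CPM at 96 h in 1A wild type. It was the member with the largest change at 96 h, a log2 fold change of 1.42 ± 0.19 (edgeR adjusted p = 1.35e-08; 1.32 ± 0.13 with the length trend removed). As a share of Cox6b1 and Cox6b2 together, per kilobase, it made up 12.8, 11.0 and 12.4% in the 96 h libraries, against 7.25, 8.83 and 5.98% at 0 h, ranges that do not overlap. At 48 h the share was 9.26, 7.37 and 5.93%, overlapping with that of 0 h, and Cox6b1 rose too, by 1.25 ± 0.22. Cox7a1, the muscle isoform of Cox7a, had group means of 0.978 CPM at 48 h and 0.500 CPM at 0 h and did not pass the test in this line.

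In complex V all 9 stalk and membrane subunits (median log2 fold change 0.92) and all 5 F1 subunits (median 0.60) rose at 48 h, 8 and 3 of them after length correction. Atp5l, subunit g, and Atp5mpl, a small membrane subunit, rose most, by 1.32 ± 0.25 and 1.36 ± 0.25. Atp5b had 3189.8, 3058 and 3455 CPM at 48 h, against 2369, 2459 and 2295 CPM at 0 h, a log2 fold change of 0.45 ± 0.063 (edgeR adjusted p = 4.57e-08). Atp5a1 changed less, by 0.23 ± 0.079 (edgeR adjusted p = 0.0141), and did not pass after length correction, at 0.11 ± 0.070, or without replicate 1 or 3 of 1A wild type at 0 h or replicate 3 of 1A wild type at 48 h. The 3 genes of subunit c encode the same mature protein, and no difference between them was tested. Atp5g3 and Atp5g1 rose at 48 h by 0.53 ± 0.15 and 0.59 ± 0.16, where Atp5g2 gave 0.33 ± 0.19 and did not pass (edgeR adjusted p = 0.135). At 96 h Atp5g3 and Atp5g1 gave 0.15 ± 0.15 and 0.29 ± 0.16, and neither passed (edgeR adjusted p = 0.43 and 0.13). Atp5g2 had 20.9, 21.7 and 27.9 CPM at 96 h, against 37.3, 32.7 and 34.3 CPM at 0 h, and fell by 0.57 ± 0.20 on the log2 scale (edgeR adjusted p = 0.0138), a call lost without replicate 1 of 0 h or replicate 1 or 2 of 96 h (edgeR adjusted p = 0.061, 0.072 and 0.051). Atp5g2 made up 5.90, 6.12 and 8.45% of the 3 genes' level per kilobase at 96 h, against 11.4, 9.96 and 11.7% at 0 h. At 48 h it was 11.6, 9.57 and 7.31%, which overlaps with 0 h.

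In the other 3 lines the rise was also present at 12 h. At that time 71 members were called higher in the Eed knockout (all genes, 25.2%; member median 0.66), 54 in the Ezh2 knockout (all genes, 26.2%; member median 0.46) and 50 in V19 (all genes, 21.5%; member median 0.45), each against its own 0 h. None was called lower. After length correction the counts were 52 (all genes, 23.1%), 36 (25.7%) and 34 (20.8%) in that order of lines. In all 4 lines at once 36 members were called higher at 12 h (all genes, 10.4%), and 20 were after length correction (9.67%), with 1, Uqcrc1, then called lower in all 4 (13.1%). With 1 library left out, and both directions counted, the calls in the Ezh2 knockout were 31 without replicate 1 of the Ezh2 knockout at 12 h. In V19 they were 28 without replicate 3 of V19 at 12 h, 30 without replicate 3 of V19 at 0 h and 31 without replicate 1 of V19 at 0 h.

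At 24 h 21 members were called higher in the Eed knockout (all genes, 23.4%), 26 in the Ezh2 knockout (24.5%) and 18 in V19 (21.0%), shares near those of all genes in this fit. Ndufs1 was called lower in the Eed knockout and Ndufa8 in the Ezh2 knockout at that time, where 17.7% and 22.2% of all genes were. Length correction gave 32 higher calls in the Eed knockout (all genes, 22.7%), 31 in the Ezh2 knockout (23.9%) and 33 in V19 (20%), shares above those of all genes. With only the groups compared in the fit, 41 were called in the Ezh2 knockout and 46 in V19, and without the 7 libraries 35 in V19. The 24 h calls of the Eed knockout were 4 without replicate 3 of the Eed knockout at 24 h, 11 without replicate 3 of the Eed knockout at 0 h and 14 without replicate 1 of the Eed knockout at 0 h. Those of the Ezh2 knockout were 10 without replicate 2 of the Ezh2 knockout at 24 h. Those of V19 were 8 without replicate 3 of V19 at 0 h and 10 without replicate 1 of V19 at 0 h or replicate 1 or 2 of V19 at 24 h. Replicate 3 of the Eed knockout and replicate 2 of the Ezh2 knockout had the most negative length slopes of their groups, -0.081 and -0.10.

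At 48 h 17 members were called higher in the Eed knockout (all genes, 28.1%; member median 0.18), 30 in the Ezh2 knockout (25.1%; 0.27) and 64 in V19 (26.7%; 0.65). In this fit the share was below that of all genes in the Eed knockout and well above it in V19. Called lower were Ndufs1 and Ndufaf4 in the Eed knockout (all genes, 21.1%) and Ndufs1 and Ndufa8 in the Ezh2 knockout (24.0%). Length correction gave higher calls of 32 in the Eed knockout (all genes, 27.0%), 36 in the Ezh2 knockout (25.1%) and 49 in V19 (25.8%), so that the share in the Eed knockout was then above that of all genes. Fitting only the groups compared gave 40 calls in the Eed knockout, 60 in the Ezh2 knockout and 36 in V19, and without the 7 libraries there were 45 in the Eed and 51 in the Ezh2 knockout. In V19 at 48 h replicate 2 stood apart, with a member median 1.47 above 1A wild type at 0 h on the log2 scale, against 0.56 and 0.36 in replicates 1 and 3. The calls in V19 were 34 without replicate 2 of V19 at 48 h. Those in the Eed knockout were 8 without replicate 2 of the Eed knockout at 48 h, 11 without replicate 3 of the Eed knockout at 0 h and 12 without replicate 3 of the Eed knockout at 48 h, and in the Ezh2 knockout 20 without replicate 3 of the Ezh2 knockout at 0 h or replicate 2 of the Ezh2 knockout at 48 h. Called higher in all 4 lines at 48 h were 12 members (all genes, 9.92%): Ndufa13 and Ndufc2 of complex I, Sdhb and Sdhc of complex II, Uqcrfs1 and Uqcr10 of complex III, Cox5a, Cox6b1, Cox8a and Cox7a2l of complex IV, and Atp5l and Atp5mpl of complex V. At 24 h 6 members were, Ndufa13, Ndufc2, Sdhb, Uqcrfs1, Cox5a and Cox7a2l (all genes, 9.04%), and at 96 h 0 were (all genes, 9.08%). After length correction the counts in all 4 lines were 17 at 24 h (all genes, 8.93%), 20 at 48 h (9.9%) and 6 at 96 h (8.94%), and 1, Ndufa4, was called lower in all 4 at 96 h (9.92%).

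**Figure D3:**
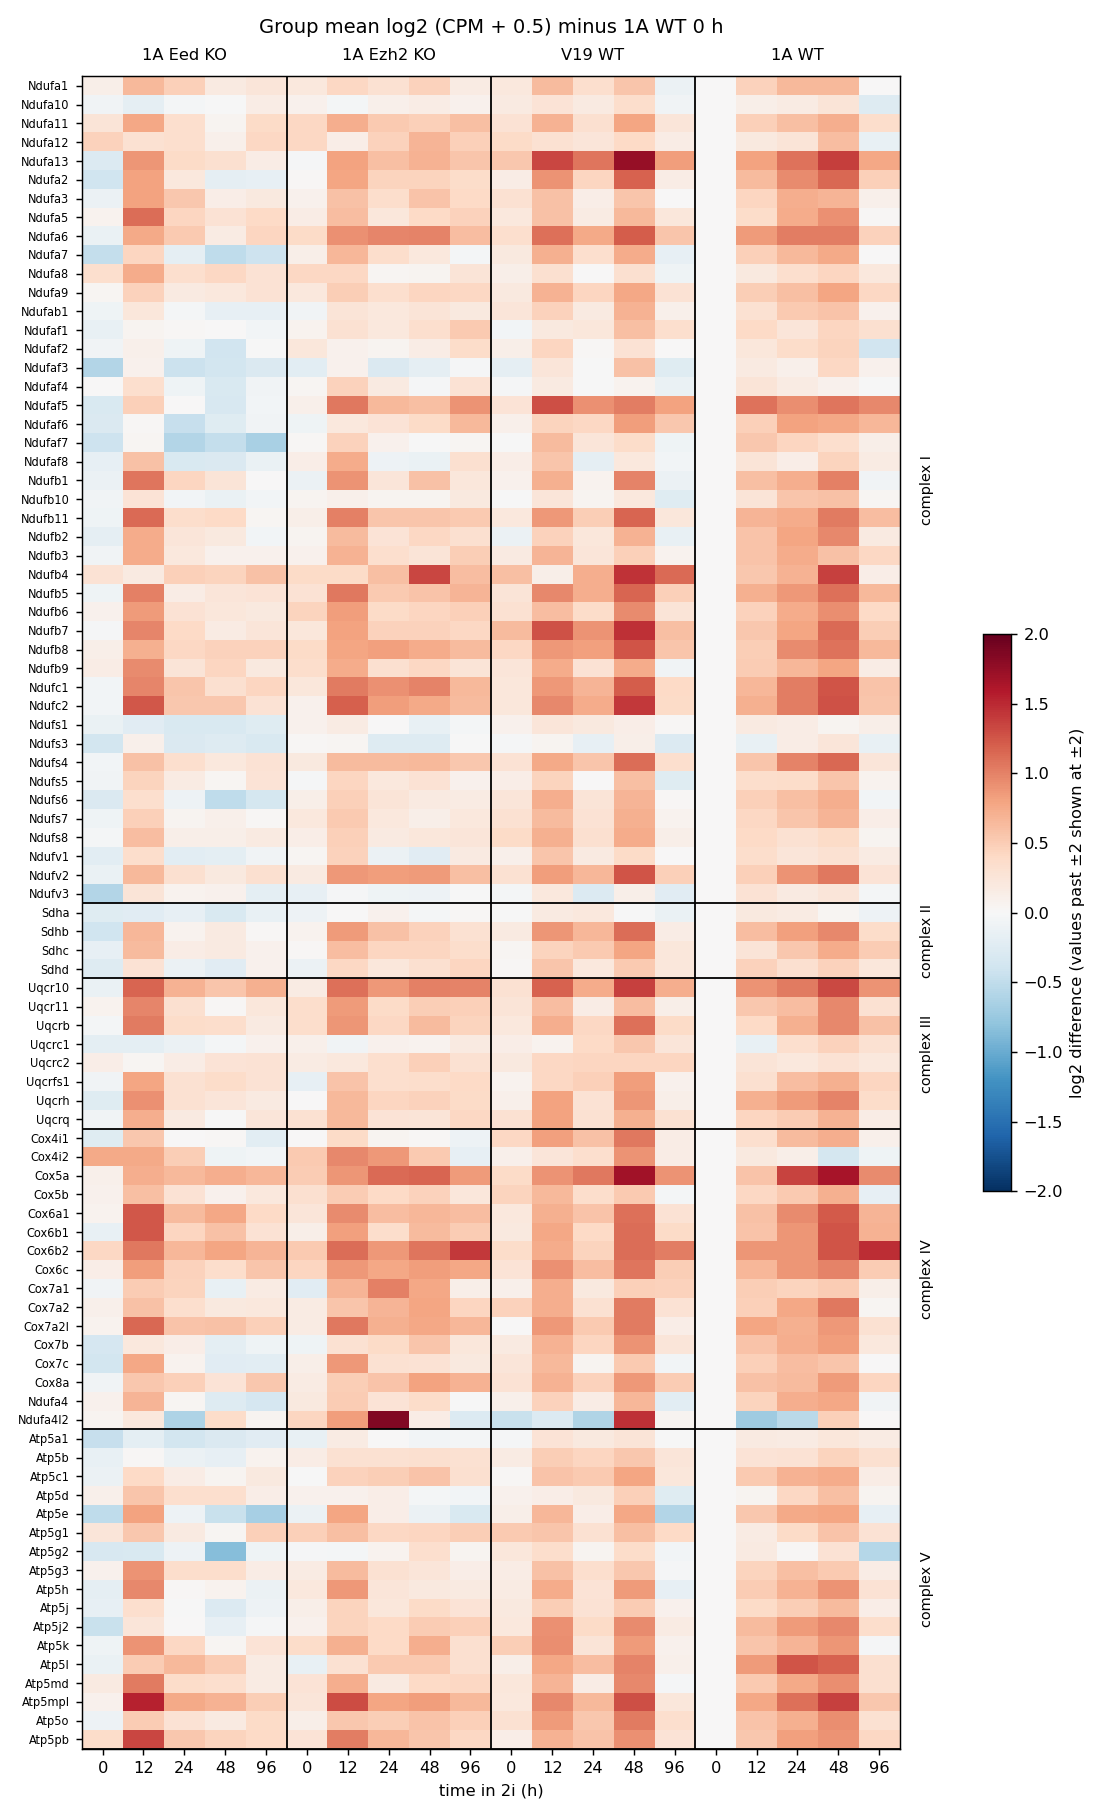
Each cell is the mean log2 (CPM + 0.5) of a tested member (vertical axis, by complex, 1 of the 90 not shown) in a group minus its mean in 1A wild type at 0 h, by hours in 2i within each line (horizontal axis), with red above and blue below and values past 2 in either direction drawn at 2. The 48 h columns of V19 and 1A wild type are red over nearly all members, and the Eed knockout columns from 24 h on are paler.

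At 96 h against 0 h the higher calls in the other 3 lines numbered 16 in the Eed knockout (all genes, 23.3%), 12 in the Ezh2 knockout (22.2%) and 6 in V19 (24.8%), shares below those of all genes in this fit. In V19 Atp5e, the epsilon subunit of the F1 head, and Cox5b were called lower, by 0.70 ± 0.28 and 0.47 ± 0.18 on the log2 scale (all genes, 22.7%). The Atp5e call was lost without replicate 2 or 3 of V19 at 0 h or replicate 1, 2 or 3 of V19 at 96 h. The Cox5b call was lost without replicate 2 or 3 of V19 at 0 h or replicate 1 or 2 of V19 at 96 h. With the length trend removed 21 members were called higher and 2 lower in the Eed knockout (all genes, 22.7% and 21.3%), 18 and 8 in the Ezh2 knockout (21.0% and 25.2%), and 16 and 9 in V19 (23.3% and 27.8%). The share of higher calls was then near that of all genes in both knockouts. Counted in both directions, 42 members were called in the Eed knockout, 33 in the Ezh2 knockout and 40 in V19 with only the groups compared in the fit, and 37, 25 and 28 without the 7 libraries. Those of V19 were then mostly lower, 23 and 17 of them. Ndufaf5 rose by 0.81 ± 0.15 in the Ezh2 knockout, by 0.54 ± 0.16 in V19 and by 1.00 ± 0.16 in 1A wild type, and gave 0.29 ± 0.17 in the Eed knockout (edgeR adjusted p = 0.195). Cox6b2 gave 0.90 ± 0.18 in the Ezh2 knockout, 0.67 ± 0.20 in V19 and 1.42 ± 0.19 in 1A wild type, which all passed, and 0.29 ± 0.19 in the Eed knockout, which did not (edgeR adjusted p = 0.231). The calls in the Eed knockout were 6 without replicate 3 of the Eed knockout at 0 h and 7 without replicate 2 of the Eed knockout at 96 h, and in V19 they were 5 without replicate 3 of V19 at 0 h or replicate 2 of V19 at 96 h.

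Whether a knockout changed the response to 2i was tested by the difference of the responses, the change from 0 h in the knockout minus that in 1A wild type. The 48 h contrasts were added after the data had been seen. At 48 h 36 members had a smaller response in the Eed knockout than in 1A wild type (all genes, 16.3%; member median -0.61), and 0 had a larger one. In the Ezh2 knockout 21 members had a smaller response (all genes, 8.63%; member median -0.55) and 0 a larger one. With the length trend removed the smaller responses numbered 19 in the Eed knockout (all genes, 18.0%; member median -0.12) and 15 in the Ezh2 knockout (9.39%; -0.22). For the Eed knockout that share was near the one of all genes. In that fit 1 member had a larger response in each, Ndufv3 in the Eed knockout (all genes, 16.8%) and Sdhd in the Ezh2 knockout (7.15%). For V19 minus 1A wild type 0 members passed at 48 h (edgeR; all genes in either direction, 2.25%), with 1 at an unadjusted p under 0.05. Without the 7 libraries that depart in length slope, replicate 2 of V19 at 48 h among them, 48 members had a smaller response in V19, 69 had a smaller one in the Eed knockout and 59 in the Ezh2 knockout. No share of all genes is given for that fit, so these counts cannot be read as particular to the members. The response calls for the Eed knockout were 22 without replicate 3 of 1A wild type at 0 h or replicate 3 of the Eed knockout at 48 h and 23 without replicate 2 of the Eed knockout at 0 h. Those for the Ezh2 knockout were 8 without replicate 2 of the Ezh2 knockout at 0 h, 9 without replicate 3 of 1A wild type at 0 h, 12 without replicate 3 of the Ezh2 knockout at 48 h or replicate 3 of 1A wild type at 48 h and 13 without replicate 1 of the Ezh2 knockout at 0 h or replicate 2 of the Ezh2 knockout at 48 h. Those for V19 were 8 without replicate 2 of V19 at 48 h. Fitting only the groups compared gave 72 calls for the Eed and 63 for the Ezh2 knockout.

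Cox5a, Ndufa9 and Ndufb8 had a smaller 48 h response in both knockouts and in both fits. Before length correction, Ndufa9 differed by -0.60 in the Eed and -0.57 in the Ezh2 knockout, and Ndufb8 by -0.75 and -0.74. Cox5a had 323, 395 and 349.9 CPM at 48 h and 231, 243 and 219 CPM at 0 h in the Eed knockout. In the Ezh2 knockout it had 496, 472 and 478 CPM at 48 h and 317, 321 and 283 CPM at 0 h. Its values in 1A wild type were 666, 696 and 661 CPM at 48 h and 234, 219.5 and 194 CPM at 0 h. The 48 h libraries of both knockouts lay below all 3 of 1A wild type. The response was smaller by 1.02 ± 0.23 in the Eed knockout (edgeR adjusted p = 0.000355) and by 0.99 ± 0.23 in the Ezh2 knockout (edgeR adjusted p = 0.00141) on the log2 scale. Length-corrected, these differences were -1.03 ± 0.22 and -0.98 ± 0.22. Cox5a still rose within each knockout, by 0.62 ± 0.16 and 0.65 ± 0.16. At 0 h it was already called higher in the Ezh2 knockout than in 1A wild type, as given below. Part of its response difference in that knockout thus lies at 0 h. In V19 it had 597, 1107 and 503 CPM at 48 h and 266, 303 and 276 CPM at 0 h, with replicate 2 the highest of all libraries.

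Ndufaf5 was among the members with the largest differences at 48 h in the Eed knockout. It had 12.8, 14.7 and 9.75 CPM at 48 h and 13.1, 12.5 and 11.3 CPM at 0 h there, against 32.4, 33.2 and 33.3 CPM at 48 h and 15.5, 13.9 and 16.8 CPM at 0 h in 1A wild type. Its response difference was -1.07 ± 0.25 (edgeR adjusted p = 0.000506), and -1.07 ± 0.24 with the length trend removed. In the Ezh2 knockout the difference of -0.60 ± 0.23 did not pass (edgeR adjusted p = 0.0593). Ndufa4, a subunit of complex IV despite its name, differed by -1.10 ± 0.28 and Ndufa12 by -1.03 ± 0.37 in the Eed knockout. After that correction Ndufa4 stood at -0.45 ± 0.11 and still passed, and Ndufa12 at -0.65 ± 0.30 and did not. The Ndufa12 call was also lost without replicate 2 of 1A wild type at 0 h, replicate 2 of the Eed knockout at 0 h, replicate 1 or 2 of 1A wild type at 48 h or replicate 3 of the Eed knockout at 48 h. Among the members that lost their call under the correction were also Cox6c and Uqcr11, whose values moved to -0.11 and -0.31. In the Ezh2 knockout Ndufb6, Ndufb7 and Ndufb5, accessory subunits of the membrane arm, differed by -0.93 ± 0.27, -0.88 ± 0.30 and -0.81 ± 0.26, and passed in both fits. Atp5h and Cox6a1 differed by -0.91 ± 0.33 and -0.81 ± 0.27 and did not pass with the length trend removed, at -0.52 and -0.41 (edgeR adjusted p = 0.0881 and 0.12). Leaving out 1 library also ended the Atp5h call (without replicate 1 or 2 of the Ezh2 knockout at 0 h, replicate 1, 2 or 3 of 1A wild type at 0 h, replicate 1, 2 or 3 of the Ezh2 knockout at 48 h or replicate 2 or 3 of 1A wild type at 48 h). The Cox6a1 call was likewise lost without replicate 1 or 2 of the Ezh2 knockout at 0 h, replicate 3 of 1A wild type at 0 h, replicate 2 or 3 of the Ezh2 knockout at 48 h or replicate 3 of 1A wild type at 48 h. The Ndufb5 call was lost without replicate 2 of the Ezh2 knockout at 0 h, replicate 3 of 1A wild type at 0 h or replicate 3 of 1A wild type at 48 h. The Ndufb7 call was lost without replicate 2 of the Ezh2 knockout at 0 h, replicate 3 of 1A wild type at 0 h, replicate 1 or 2 of the Ezh2 knockout at 48 h or replicate 3 of 1A wild type at 48 h.

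**Figure D4:**
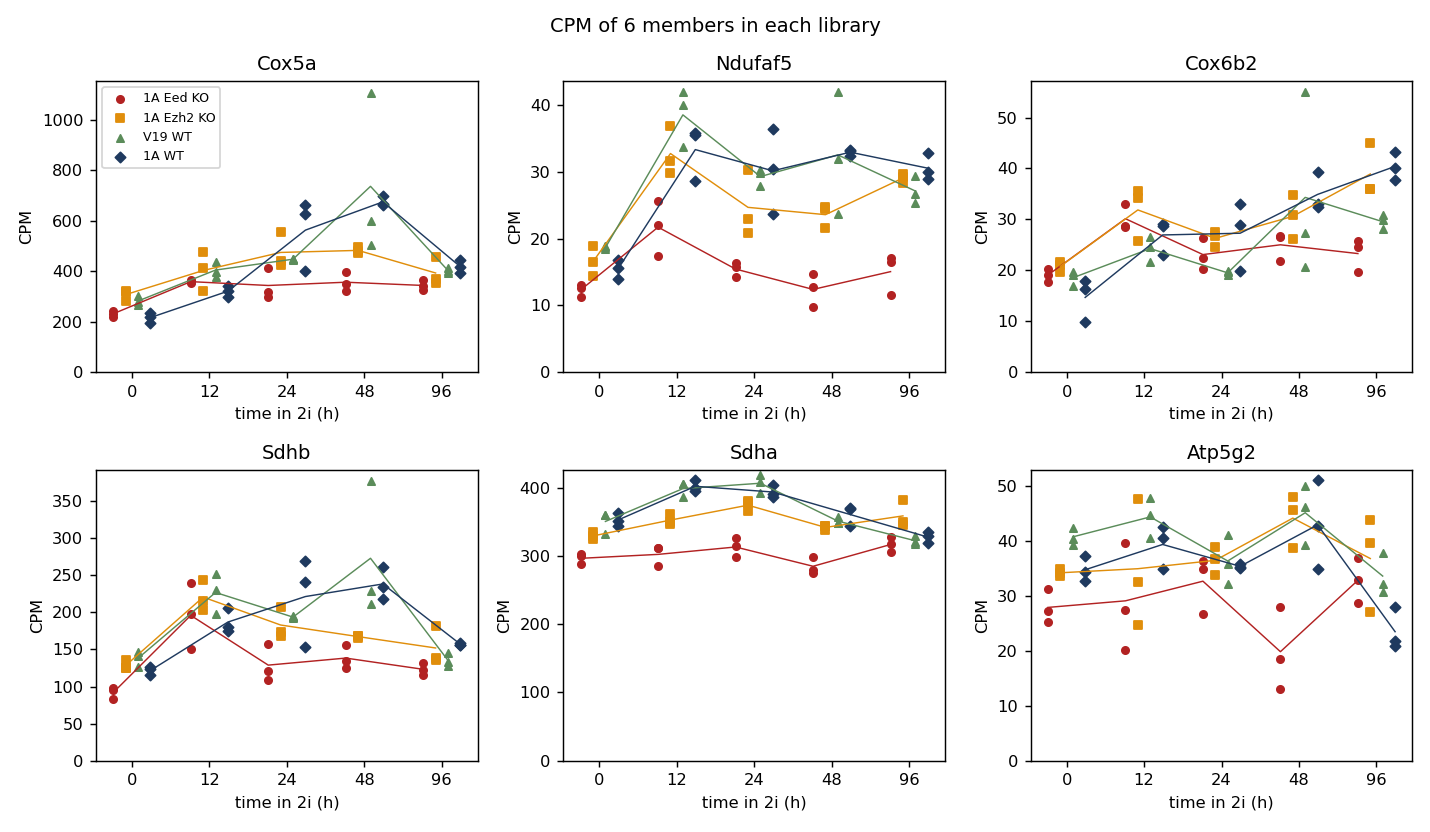
Each point is the CPM of 1 library for Cox5a, Ndufaf5, Cox6b2, Sdhb, Sdha and Atp5g2 (1 panel each, vertical axis from 0), by hours in 2i, with lines through the group means of the Eed knockout, the Ezh2 knockout, V19 and 1A wild type. Cox5a at 48 h lies between 323 and 395 CPM in the Eed knockout and between 661 and 696 CPM in 1A wild type.

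At 96 h the response was tested in the same way. In the Eed knockout 4 were called (all genes in either direction, 27.3%): Cox6b2 and Ndufaf5 with a smaller response, by 1.13 ± 0.27 and 0.71 ± 0.24 on the log2 scale, and Atp5g2 and Sdha with a larger one, by 0.81 ± 0.27 and 0.20 ± 0.077. The edgeR adjusted p was 0.00107 for Cox6b2, 0.0196 for Ndufaf5, 0.021 for Atp5g2 and 0.0449 for Sdha. The Ndufaf5 call was lost without replicate 2 of 1A wild type at 0 h, replicate 1 of the Eed knockout at 0 h or replicate 3 of the Eed knockout at 96 h. The Atp5g2 call was lost without replicate 1 of 1A wild type at 0 h, replicate 3 of the Eed knockout at 0 h, replicate 1 of 1A wild type at 96 h or replicate 3 of the Eed knockout at 96 h. The Sdha call was lost with the length trend removed, with the replicate number as a block (edgeR adjusted p = 0.0502) and without replicate 1 or 2 of 1A wild type at 0 h, replicate 1 or 3 of the Eed knockout at 0 h, replicate 1 or 3 of 1A wild type at 96 h or replicate 1 or 2 of the Eed knockout at 96 h. In the Ezh2 knockout 1 member was called, Sdha, at 0.23 ± 0.077 (edgeR adjusted p = 0.0403; all genes, 12.2%), a call lost with RLE size factors (edgeR adjusted p = 0.051) and without replicate 1, 2 or 3 of the Ezh2 knockout at 0 h, replicate 1 or 2 of 1A wild type at 0 h, replicate 1 of the Ezh2 knockout at 96 h or replicate 1 or 3 of 1A wild type at 96 h. In V19 0 were called by edgeR (all genes, 1.68%), with 8 at an unadjusted p under 0.05. Cox6b2 and Ndufaf5 were among these, at -0.75 ± 0.28 and -0.46 ± 0.23 (edgeR adjusted p = 0.187 and 0.375), while Sdha stood at -0.016 ± 0.077. The smaller responses of Cox6b2 and Ndufaf5 in the Eed knockout can thus not be called particular to it. With 1 library left out the counts were 2 without replicate 1 or 3 of the Eed knockout at 0 h, replicate 1 of 1A wild type at 96 h or replicate 3 of the Eed knockout at 96 h for the Eed knockout. For the Ezh2 knockout they were 0 without replicate 1, 2 or 3 of the Ezh2 knockout at 0 h, replicate 1 of 1A wild type at 0 h or replicate 1 or 3 of 1A wild type at 96 h and 2 without replicate 2 of the Ezh2 knockout at 96 h. Without the 7 libraries they were 11 for the Eed knockout, 15 for the Ezh2 knockout and 19 for V19, and with only the groups compared in the fit they were 23, 8 and 32. After length correction 9 members were called for the Eed knockout (all genes, 31.3%), 6 with a smaller and 3 with a larger response. In that fit 0 passed for V19 (2.36%). For the Ezh2 knockout 9 were called as well (15.3%). Of these 7 had a smaller response, Ndufa8, Ndufa9, Ndufb6, Uqcrc1, Uqcrb, Cox5a and Cox6b2, with Cox5a at -0.61 ± 0.22 and Cox6b2 at -0.58 ± 0.18, and 2 had a larger one, Sdha and Sdhd.

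Set directly against 1A wild type, the Eed knockout had some members called lower at both ends of the time course, in shares below or near those of all genes. At 0 h 12 of 90 members were called lower (all genes, 23.3%) and none higher, with a member median of -0.10. Length-corrected, 20 were called lower (all genes, 28.4%) and 7 higher (26.1%), and 11 members were lower in both fits. In neither fit did the share of members called lower exceed that of all genes. Among the 12 were the complex I genes Ndufaf3, Ndufv3, Ndufa7, Ndufaf7, Ndufs3 and Ndufaf6, the complex II genes Sdha, Sdhb and Sdhd, and Atp5a1 and Atp5b of complex V. No gene of complex III or IV was among them. Atp5a1 had 1338, 1348 and 1224 CPM in the Eed knockout, against 1763, 1889.8 and 1752 CPM in 1A wild type, a log2 fold change of -0.47 ± 0.079 (edgeR adjusted p = 2e-06). Sdhb had 97.6, 95.3 and 82.9 CPM in the Eed knockout, against 124, 126 and 115 CPM in 1A wild type (-0.41 ± 0.16, edgeR adjusted p = 0.0317), a call lost without replicate 1 or 2 of 1A wild type at 0 h or replicate 3 of the Eed knockout at 0 h. Sdha was lower by 0.25 ± 0.054 (edgeR adjusted p = 0.00013). The groups did not overlap for any of the 12. Calls numbered 30 with only the groups compared in the fit, 30 without the 7 libraries, 4 without replicate 1 of 1A wild type at 0 h and 5 without replicate 2 of 1A wild type at 0 h or replicate 3 of the Eed knockout at 0 h, and 3 on the RUV-normalized values that the authors deposited, on which Ndufa7, Ndufaf7, Sdhd and Atp5b had differences above 0. On those values Atp5a1, Sdhb and Sdha did not pass either (limma adjusted p = 0.419, 0.884 and 0.907).

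At 96 h 15 members were called lower in the Eed knockout than in 1A wild type (all genes, 24.4%) and 2 higher (30.9%), with a member median of -0.15. With the length trend removed 29 were lower (29.7%) and 11 higher (30.5%), and all 17 of the first calls were among them. The share of members called lower was below that of all genes before the correction and near it afterwards. Ndufaf5 (chr2:140012504-140047172, GRCm39) had 16.5, 17.1 and 11.6 CPM in the Eed knockout, against 29.0, 32.8 and 29.9 CPM in 1A wild type, a log2 fold change of -1.02 ± 0.16 (edgeR adjusted p = 1.87e-07). Ndufaf7, a methyltransferase, and Ndufaf6 were lower by 0.77 ± 0.15 and 0.75 ± 0.13. With Ndufaf1, 4 of the 8 Nduf assembly factors were called lower. Cox6b2 had 19.6, 24.5 and 25.8 CPM in the Eed knockout, against 43.3, 37.8 and 40.2 CPM in 1A wild type (-0.79 ± 0.18, edgeR adjusted p = 0.000143). Among structural subunits, Ndufa2, Ndufa13 and Ndufs1 of complex I were lower by 0.64, 0.63 and 0.36, Sdhc by 0.41, Uqcrc1 by 0.23, and Atp5a1 and Atp5b by 0.39 and 0.24 on the log2 scale. Ndufb11, Ndufa7 and Uqcrb were also called lower. Ndufa10 and Atp5g2 were higher, by 0.40 ± 0.15 and 0.49 ± 0.19. The Atp5g2 call was lost without replicate 1 or 2 of 1A wild type at 96 h or replicate 2 or 3 of the Eed knockout at 96 h. The Ndufa10 call was lost without replicate 1 or 2 of 1A wild type at 96 h. The Ndufa2 call was lost without replicate 1 or 2 of 1A wild type at 96 h or replicate 1 or 3 of the Eed knockout at 96 h, and those of Sdhc and Uqcrc1 each without replicate 2 of 1A wild type at 96 h or replicate 1 or 3 of the Eed knockout at 96 h. In these comparisons the Eed knockout also had 1904 to 5316 CPM of summed primitive endoderm markers, against 558 to 928 CPM in 1A wild type, and 1613 to 5630 CPM of summed trophoblast markers, against 278 to 835 CPM. Their part in the members' differences was not tested, and in bulk RNA fewer cells of a type and less RNA per cell cannot be told apart. Calls numbered 10 without replicate 2 of 1A wild type at 96 h, 33 with genes of low counts kept, 50 with only the groups compared in the fit, 41 without the 7 libraries, and 5 on the RUV-normalized values, where Uqcrc1, Atp5a1 and Atp5b had differences above 0. On those values Ndufaf5 differed by -0.22, Ndufaf7 by -0.11 and Ndufaf6 by -0.12, and none of the 3 passed (limma adjusted p = 0.375, 0.669 and 0.607).

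**Figure D5:**
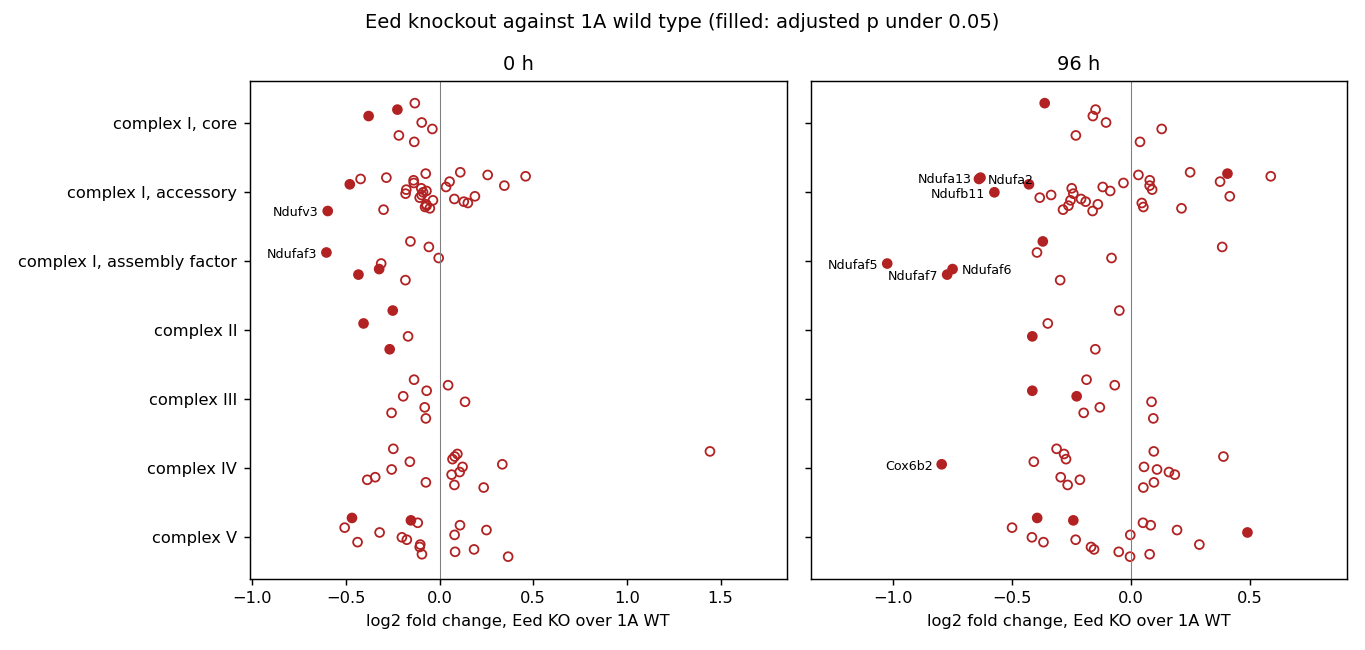
Each point is a tested member, placed by its log2 fold change of the Eed knockout over 1A wild type (horizontal axis) at 0 h in the left panel and at 96 h in the right one, in rows by complex and class, with called members filled and named where the fold change is past 0.5. At 96 h the assembly factors Ndufaf5, Ndufaf7 and Ndufaf6 lie at -1.02, -0.77 and -0.75, and the called complex IV point at -0.79 is Cox6b2.

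The Ezh2 knockout and V19 were set against 1A wild type in the same way. In the Ezh2 knockout at 0 h 3 members were called, all higher (all genes in either direction, 22.8%): Cox5a by 0.50 ± 0.16, Atp5g1 by 0.47 ± 0.16 and Ndufa8 by 0.42 ± 0.15 on the log2 scale. Cox5a had 317, 321 and 283 CPM in the Ezh2 knockout at 0 h, against 234, 219.5 and 194 CPM in 1A wild type. At 96 h 2 members were called (all genes, 13.2%), Ndufaf2, an assembly factor, higher by 0.78 ± 0.23 and Atp5g2 higher by 0.66 ± 0.19. The groups overlapped for Atp5g2, with 43.8, 27.0 and 39.6 CPM in the knockout and 20.9, 21.7 and 27.9 CPM in 1A wild type. In V19 at 0 h 2 were called (all genes, 10.5%), Ndufb7 higher by 0.63 ± 0.21 and Atp5g1 higher by 0.53 ± 0.16. At 96 h 0 were called by edgeR (all genes, 7.45%), with 8 at an unadjusted p under 0.05 and 1 called by DESeq2. These counts depend on the fit. After length correction they were 11 at 0 h (all genes, 25.8%) and 9 at 96 h (16.9%) for the Ezh2 knockout, and 6 (12.1%) and 6 (10.1%) for V19. Fitting only the groups compared gave 31 at 0 h and 7 at 96 h for the Ezh2 knockout and 25 and 28 for V19. Without the 7 libraries there were 19 and 7 for the Ezh2 knockout and 24 and 16 for V19. In the last of these fits all calls at 0 h were higher, in both lines, and most of those at 96 h were lower. The 0 h calls for the Ezh2 knockout were 0 without replicate 1 or 2 of the Ezh2 knockout at 0 h or replicate 3 of 1A wild type at 0 h and 1 without replicate 1 or 2 of 1A wild type at 0 h. Its 96 h calls were 0 without replicate 1 of the Ezh2 knockout at 96 h or replicate 1 or 2 of 1A wild type at 96 h and 4 without replicate 3 of 1A wild type at 96 h. For V19 the 0 h calls were 0 without replicate 1, 2 or 3 of 1A wild type at 0 h or replicate 1 or 2 of V19 at 0 h and 1 without replicate 3 of V19 at 0 h. The V19 calls at 96 h were 1 without replicate 1 of V19 at 96 h and 2 without replicate 3 of 1A wild type at 96 h. The 3 tested members on chromosome 8, Ndufa13, Ndufb7 and Cox4i1, had a median log2 fold change of 0.53 in V19 at 0 h, against 0.19 for the other 87. Ndufb7, called higher there, is thus on this chromosome. Its 809 other tested genes had a median of 0.40, with 354 called higher and 8 lower. The 14184 other genes elsewhere had a median of -0.01, with 400 called higher and 826 lower. At 96 h the 3 members had a median of 0.061 and the other 87 one of -0.13, while the 809 genes stood at 0.35.

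Across all 20 groups the widest ranges of group means among members with at least 5 CPM were those of Ndufa13, Cox5a, Ndufaf5, Ndufa2, Atp5mpl and Sdhb. Ndufa13 ran from 65.2 CPM in the Eed knockout at 0 h to 289.8 CPM in V19 at 48 h. Cox5a ran from 216 CPM in 1A wild type at 0 h to 736 CPM in V19 at 48 h. The V19 libraries at 48 h had 597, 1107 and 503 CPM of Cox5a, so that replicate 2, which departs in length slope, raised this mean. The Cox5a mean of 1A wild type at 48 h, 674 CPM, lay above replicates 1 and 3 of V19. Ndufaf5 ran from 12.3 to 38.5 CPM, Ndufa2 from 51.1 to 181 CPM, Atp5mpl from 65.7 to 204 CPM, and Sdhb from 91.9 to 273 CPM. The highest means of Ndufa2 and Sdhb were also those of V19 at 48 h, where the libraries had 229, 377 and 212 CPM of Sdhb. After length correction the widest 6, on the log2 scale, ran from 1.67 for Ndufa13 to 1.37 for Cox6b2, with Cox5a, Ndufaf5, Ndufb4 and Ndufaf6 between. Ndufa2, Atp5mpl and Sdhb then stood at 0.95, 1.09 and 1.10. Among the subunit c genes, per kilobase, Atp5g3 made up 55.1% to 68.8% of the level in the 20 group means, Atp5g1 25.2% to 35.0% and Atp5g2 5.62% to 11.3%.

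The partners of these genes were described by the same test. At 48 h in 1A wild type 26.8% of all genes were called higher and 26.2% lower, or 25.5% and 26.9% after length correction. Of the 13 subunits encoded in mitochondrial DNA, 7 could be tested. ND4L, COX2, COX3, ATP6 and ATP8 are listed at 0 in every library, and ND3 had too few counts. At 48 h in 1A wild type 1 of the 7 was called higher, ND6, by 0.77 ± 0.23 (edgeR adjusted p = 0.00458), and 0 were after length correction, at 0.19 for ND6. At 96 h in the Eed knockout 3 of the 7 were called higher than in 1A wild type (all genes, 30.9%): ND4 by 1.13 ± 0.48, ND2 by 1.00 ± 0.34 and COX1 by 0.67 ± 0.25. The mitochondrial ribosome, which translates these subunits, had 35 of 78 genes called higher and 0 lower at 48 h in 1A wild type (median 0.31), and 17 higher and 11 lower after length correction (median 0.073). Mrpl35 and Mrps9 rose by 0.81 ± 0.14 and 0.76 ± 0.12 and were hardly moved by the correction, at 0.83 and 0.77. At 0 h in the Eed knockout 17 ribosome genes were called lower (all genes, 23.3%) and 1 higher (26.4%) than in 1A wild type, and the share of lower calls did not exceed that of all genes.

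Assembly factors outside the symbol rule were called higher in 17 and lower in 1 of 39 cases at 48 h in 1A wild type (median 0.34; all genes, 26.8% and 26.2%), and 12 higher and 2 lower after length correction (median 0.083; all genes, 25.5% and 26.9%). Nubpl, which delivers iron-sulphur clusters to complex I, rose by 0.91 ± 0.15, and Ecsit, a complex I assembly factor, fell by 0.68 ± 0.11 on the log2 scale. Cycs, the somatic cytochrome c that carries electrons between complexes III and IV, rose by 0.50 ± 0.14 (edgeR adjusted p = 0.00269). Of 13 citric acid cycle genes 6 were called higher and 3 lower, or 2 higher and 3 lower after length correction, with Sucla2 at 0.93 ± 0.11 before it. Of 12 genes of pyruvate entry 6 were called higher and 1 lower, or 5 higher and 3 lower after length correction. The one that fell before the correction was Pdk1, the kinase that switches off pyruvate dehydrogenase, by 3.39 ± 0.14 on the log2 scale (edgeR adjusted p = 4.88e-27), while Pdp2, a phosphatase that switches it on, rose by 1.29 ± 0.11 and Mpc2, a subunit of the mitochondrial pyruvate carrier, by 1.10 ± 0.25. Of 15 tested regulators of nuclear respiratory genes 3 were called higher and 6 lower at 48 h in 1A wild type, or 3 higher and 4 lower after length correction, with Esrrb at 1.00 ± 0.10 and Pprc1, a PGC-1 family coactivator, at -0.98 ± 0.16. In the Eed knockout at 96 h 3 regulators were called higher than in 1A wild type and 7 lower (all genes, 30.9% and 24.4%), with Esrra, whose motif is the ERR one above, at 1.02 ± 0.13, Esrrb at -0.56 ± 0.10 and Gabpa, a subunit of GABP, at -0.47 ± 0.087.

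Some of these values rest on reads that other genes could claim. The exons of 20 tested members overlap those of another gene, none of them over most of their length. The largest shared parts were 37.4% for Cox7a1, 31.2% for Ndufa1, 29.6% for Ndufa13 with Tssk6, 29.0% for Ndufb11 with Rbm10 and 28.5% for Cox7a2. The strand setting of the counting is not given in the sources used here, so reads of an overlapping partner cannot be told apart. Ndufv2 shares 27.7% with Ankrd12 on the same strand, where no strand setting could separate them. For 10 members, Atp5c1, Atp5k, Atp5l, Atp5pb, Cox5b, Cox7c, Ndufa12, Ndufab1, Ndufs5 and Uqcrh, the count table also lists a processed copy under the -ps suffix, and reads may be split between copy and gene.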

How the data were processed

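RNA was measured in 60 libraries, 3 for each of 20 groups, made from polyA RNA and sequenced in 75-base single reads over 2 runs that were merged, per the labels' protocols. The counts used here are whole-number raw counts per gene that the authors deposited, with the exon length of each gene. Per the submitters' processing notes, the tools were STAR 2.7.10b, featureCounts 2.0.3, MultiQC 1.14 and DESeq2, on GRCm39. The authors also deposited counts from which unwanted variation had been removed (RUV) and which are rounded, treated here as a score, whose settings are not given in the sources used here. A table of transformed counts was not used.

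Library totals of 2561169 to 11065948 reads set the precision of low genes. Genes were kept by edgeR's filterByExpr (minimum count 10, total 15), scaled by TMM and tested with the quasi-likelihood test of edgeR 4.0.16 (R 4.3.3) in 1 model of the 20 groups with 40 residual degrees of freedom. Log2 fold changes use a prior count of 2, and adjusted p-values cover the 15083 genes tested. Nothing says that replicates came from separate cultures, so p-values measure the spread between these samples. Of 28 comparisons, 9 were added after the data had been seen, among them those of 24 and 48 h in the 3 other lines. The alternatives were no filter on low counts, RLE in place of TMM, a mean of 1 CPM as the filter, the replicate number as a block, DESeq2 1.42.0, only the groups compared in the fit, limma 3.58.1 on log2 (RUV value + 1), and leaving out each replicate. Added after the data had been seen were removal of a lowess trend (span 0.3) on log2 exon length over non-member genes, and leaving out 7 libraries whose length slope lay over 0.08 from the mean of the other replicates. Promoter letters came from RefSeq (GRCm38.p6).

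The members, the lists of other genes and the tests were chosen with earlier results of these data known. Named were the Sdh genes, the catalytic and electron-carrying subunits, the isoforms, up to 6 called members per direction and comparison with the largest change (at least 5 CPM and, but for response differences, no overlap between groups), the 6 with the widest range, and up to 3 called genes per pathway list. One gene that this rule names is not reported here. Members named beyond this, such as those listed as called in all lines, were chosen after their values were seen. Same-numbered replicates were not paired: correlations of their deviations ran from -0.15 to 0.20 and in 0 of 22 comparisons were all pairs over 0.1. Replicates of 1 group differed by more than sampling noise (chi-square per degree of freedom 1.13 to 28.4 over 60 pairs). On simulated counts of 14243 genes for 1A wild type at 48 h, the test recovered 50.7% of 1.5-fold, 68.7% of 2-fold and 92.4% of 4-fold changes. It made 148 calls there, 7 of them false. With a length trend added and then removed, on 14208 genes, it made 164 calls, 12 of them false. In the data 26.8% of genes were called higher at 48 h. The adjusted threshold therefore differs, and these rates do not carry over to the members.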

Additional observations from a re-analysis of the deposited data

Results flagged for a closer look

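These results are listed because the response to 2i differed between a knockout and 1A wild type by the test of that difference (edgeR, adjusted over all genes). At 48 h 36 members passed for the Eed knockout, all with a smaller response (all genes, 16.3%). Once the length trend was removed 19 had a smaller response, a share near that of all genes (18.0%), and 1, Ndufv3, a larger one. The largest log2 differences before that correction were -1.10 for Ndufa4, -1.07 for Ndufaf5, -1.03 for Ndufa12, -1.02 for Cox5a, -0.999 for Cox7a2 and -0.97 for Uqcr11, of which those of Ndufa12 and Uqcr11 did not pass after it (edgeR adjusted p = 0.0876 and 0.0783). For the Ezh2 knockout at 48 h 21 members passed, all with a smaller response (all genes, 8.63%), or 15 with a smaller one and 1 with a larger one after the correction. Before it the largest log2 differences were -0.99 for Cox5a, -0.93 for Ndufb6, -0.91 for Atp5h, -0.88 for Ndufb7, -0.81 for Cox6a1 and -0.81 for Ndufb5, of which those of Atp5h and Cox6a1 did not pass after it. At 96 h 4 members passed for the Eed knockout, Cox6b2 at -1.13, Ndufaf5 at -0.71, Atp5g2 at 0.81 and Sdha at 0.20, a share far below that of all genes in either direction (27.3%). The Sdha call was lost with the length trend removed (edgeR adjusted p = 0.0718). For the Ezh2 knockout at 96 h 1 passed, Sdha at 0.23 (all genes, 12.2%). After the correction 9 passed (15.3%), 7 with a smaller response, Cox5a at -0.61 and Cox6b2 at -0.58 among them. The 2 knockout comparisons share the 1A wild type libraries at 0 h and at the later time. V19, a wild type line, had no member that passed at 48 h in the main fit. Without the 7 libraries that depart in length slope, 48 members had a smaller response at 48 h in V19 as well. The smaller responses at 48 h can thus not be called particular to the knockouts. At 96 h Cox6b2 and Ndufaf5 also lay below 0 in V19, at -0.75 and -0.46, and did not pass there. Both knockout counts at 48 h also fell when certain single libraries were left out.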

How the results depend on the processing

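Numbers of called members within 1.5 times those reported, under an alternative, are not repeated. Apart from the length correction, no share of all genes is given for the alternatives, so whether their counts are particular to the members cannot be said. The replicate block moved 0 of 28 counts past that range and ended the call of 1 named gene, Sdha in the 96 h response of the Eed knockout (edgeR adjusted p = 0.0502). A filter at a mean of 1 CPM also moved 0 counts past it. With only the groups compared in the fit, the calls were as follows. There were, against 0 h, 40 at 48 h and 42 at 96 h in the Eed knockout, 41 at 24 h, 60 at 48 h and 33 at 96 h in the Ezh2 knockout, 46 at 24 h, 36 at 48 h and 40 at 96 h in V19, 78 at 12 h and 49 at 96 h in 1A wild type. Against 1A wild type they numbered 30 at 0 h and 50 at 96 h in the Eed knockout, 31 at 0 h and 7 at 96 h in the Ezh2 knockout, 25 at 0 h and 28 at 96 h in V19. As response differences there were 72 at 48 h and 23 at 96 h in the Eed knockout, 63 at 48 h and 8 at 96 h in the Ezh2 knockout, 32 at 96 h in V19. With the length trend removed they were as follows. There were, against 0 h, 36 at 48 h in the Eed knockout, 26 at 96 h in the Ezh2 knockout, 34 at 24 h and 25 at 96 h in V19, 41 at 96 h in 1A wild type. Set against 1A wild type, there were 27 at 0 h and 40 at 96 h in the Eed knockout, 11 at 0 h and 9 at 96 h in the Ezh2 knockout, 6 at 0 h and 6 at 96 h in V19. The response differences had 20 at 48 h and 9 at 96 h in the Eed knockout, 9 at 96 h in the Ezh2 knockout, 1 at 48 h in V19. With no filter on low counts they were as follows. There were, against 0 h, 43 at 24 h and 29 at 96 h in the Eed knockout, 29 at 96 h in the Ezh2 knockout, 17 at 96 h in V19. Against 1A wild type they numbered 33 at 96 h in the Eed knockout, 15 at 0 h and 10 at 96 h in the Ezh2 knockout, 10 at 0 h and 9 at 96 h in V19. As response differences there were 58 at 48 h in the Eed knockout, 49 at 48 h and 3 at 96 h in the Ezh2 knockout, 2 at 48 h and 4 at 96 h in V19. Without the 7 libraries they were as follows. There were, against 0 h, 45 at 48 h and 37 at 96 h in the Eed knockout, 51 at 48 h and 25 at 96 h in the Ezh2 knockout, 35 at 24 h and 28 at 96 h in V19, 46 at 96 h in 1A wild type. Set against 1A wild type, there were 30 at 0 h and 41 at 96 h in the Eed knockout, 19 at 0 h and 7 at 96 h in the Ezh2 knockout, 24 at 0 h and 16 at 96 h in V19. The response differences had 70 at 48 h and 11 at 96 h in the Eed knockout, 59 at 48 h and 15 at 96 h in the Ezh2 knockout, 48 at 48 h and 19 at 96 h in V19. On the RUV values they were as follows. There were, against 0 h, 12 at 48 h in the Eed knockout. Against 1A wild type they numbered 3 at 0 h and 5 at 96 h in the Eed knockout, 1 at 0 h in V19. With DESeq2 they were as follows. Set against 1A wild type, there were 4 at 96 h in the Ezh2 knockout, 1 at 96 h in V19. The response differences had 2 at 96 h in the Ezh2 knockout. With RLE size factors they were as follows. Against 1A wild type they numbered 1 at 0 h and 1 at 96 h in V19. As response differences there were 0 at 96 h in the Ezh2 knockout. The cause of these shifts was not tested.

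With 1 replicate left out at a time, the lowest and highest counts of calls were as follows for comparisons with a count outside that range. There were, against 0 h, 4 to 29 at 24 h, 8 to 17 at 48 h and 6 to 15 at 96 h in the Eed knockout, 31 to 68 at 12 h, 10 to 27 at 24 h and 20 to 29 at 48 h in the Ezh2 knockout, 28 to 53 at 12 h, 8 to 20 at 24 h, 34 to 75 at 48 h and 5 to 7 at 96 h in V19, 29 to 50 at 12 h in 1A wild type. Set against 1A wild type, there were 4 to 12 at 0 h and 10 to 16 at 96 h in the Eed knockout, 0 to 3 at 0 h and 0 to 4 at 96 h in the Ezh2 knockout, 0 to 1 at 0 h and 0 to 2 at 96 h in V19. The response differences had 22 to 38 at 48 h and 2 to 5 at 96 h in the Eed knockout, 8 to 22 at 48 h and 0 to 2 at 96 h in the Ezh2 knockout, 0 to 8 at 48 h in V19.

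Among named genes the sign turned round with the length trend removed for Cox5b at -0.032 and Atp5b at -0.061 (12 h against 0 h in the Eed knockout), Cox8a at -0.071 (12 h against 0 h in the Ezh2 knockout) and Cox8a at 0.12 (48 h response in the Eed knockout minus 1A wild type) on the log2 scale. On the RUV values it turned round for Ndufa7 at 0.022, Ndufaf7 at 0.15, Sdhd at 0.025 and Atp5b at 0.17 (Eed knockout over 1A wild type, 0 h) and Uqcrc1 at 0.036, Atp5a1 at 0.010 and Atp5b at 0.13 (Eed knockout over 1A wild type, 96 h). No sign of a named gene turned round under the other alternatives run, leaving out single replicates included. The simulated recovery of 50.7% of 1.5-fold changes at 48 h in 1A wild type does not carry over to the members. Far fewer genes were called there than in the data. With 3 libraries a group, the recovery of changes in the members was not measured, so members that did not pass are not shown to be unchanged.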

Other observations

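The share of the testis isoform Cox6b2 in the summed level of Cox6b1 and Cox6b2 per kilobase was set out for the 4 lines. At 96 h it was 8.20, 9.65 and 10.6% in the Eed knockout, 12.7, 13.8 and 12.6% in the Ezh2 knockout, 11.1, 11.3 and 10.9% in V19 and 12.8, 11.0 and 12.4% in 1A wild type. At 0 h the mean share was 10.4% in the Eed knockout and 7.35% in 1A wild type. In the Eed knockout the 96 h and 0 h libraries overlapped, and in 1A wild type they did not. Atp5g2 made up 8.23, 8.51 and 9.80% of the level per kilobase of the 3 subunit c genes in the Eed knockout at 96 h, against 5.90, 6.12 and 8.45% in 1A wild type, ranges that overlap. It made up 10.1, 8.07 and 11.0% in the Ezh2 knockout and 9.16, 10.9 and 9.53% in V19. The mean of 1A wild type was thus the lowest of the 4 lines. These shares were set side by side after their values had been seen and were not tested.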
